A study of Mus musculus with 4 samples.

Results

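The vascular endothelial receptors and junction proteins of the mouse heart were described here by the DNA modification of their genes. The set held 10 genes, chosen by name: Flt1, Kdr, Flt4, Tek, Tie1, Pecam1, Cdh5, Egfl7, Vwf and Nos3. Their members were the CCGG sites that lay in the mm10 span of each gene or within 2 kb of it and that were listed in all 4 samples, which gave 570 sites of the 967498 autosomal sites so listed. Sites of these genes that some samples lacked were left out, most often in Flt1 (15 of 176) and Tek (8 of 49). The 4 samples were left ventricle of 8-week-old C57BL/6 mice, all taken 3 days after a myocardial infarction: non-infarcted and infarcted tissue of wild-type mice, and the same of Neil3-/- (Neil3-null) mice, with 1 sample per group. Neil3 is a DNA glycosylase, a repair enzyme that removes oxidized bases. Its own gene (chromosome 8, 53586867 to 53639065) had 20 listed sites, 19 and 17 of them in the wild-type samples and 17 and 15 in the Neil3-null samples; 1 was listed in both wild-type samples alone. The labels do not say which part was deleted, so this checks nothing. Every sample came from an operated mouse, since the non-infarcted tissue also dates from 3 days after infarction. The labels do not say whether animals were pooled or whether the infarcted and non-infarcted tissue of a genotype came from the same hearts. With 1 sample per group, a difference between samples cannot be set against a spread of replicates. Where values of the 4 samples follow each other, the wild-type pair comes first and the Neil3-null pair next, each with non-infarcted before infarcted tissue.

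Endothelial cells line every vessel of the heart. They sense vascular endothelial growth factor (VEGF) through receptor tyrosine kinases of the Flt1, Kdr and Flt4 family and angiopoietins through Tek, with Tie1 as its partner receptor. They hold together through VE-cadherin, encoded by Cdh5, and PECAM-1. In vertebrates, CCGG sites near the starts of genes are often unmodified, whereas most such sites elsewhere carry 5-methylcytosine (5mC), and part of it is oxidized to 5-hydroxymethylcytosine (5hmC).

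In the assay, HMST-seq, a short tag is read beside each cut CCGG site, and 3 libraries were made per sample. HpaII cuts only unmodified sites. MspI cuts them whether or not the inner cytosine is modified. MspI after glucosylation leaves 5hmC sites uncut, and this library is called C+mC. Each gene was given by 2 ratios of summed signal: HpaII as a percent of MspI, which is higher where more sites are unmodified, and C+mC as a percent of MspI, which is lower where more 5hmC is read. The authors' scaling brought the libraries of a sample to near-equal totals, so the ratios are relative, can pass 100% and are not shares of DNA molecules. Over all autosomal sites, HpaII came to 101.3% to 106.3% of MspI and C+mC to 96.7% to 97.7%. The mean MspI signal per site over the 10 genes was 43.1 and 36.2 in the wild-type pair, then 42.0 and 42.5 in the Neil3-null pair. How many tags lie behind a value is unknown. One library stood apart, the C+mC library from non-infarcted wild-type tissue: its log2 signal correlated across sites at 0.832 to 0.845 with the C+mC libraries of the other samples. The highest correlation among the others was 0.903. Its correlation with MspI in the same tissue was 0.534, against 0.698 to 0.725 for the others. C+mC differences that use that library are therefore given beside those that do not. A left ventricle holds many cell types, and a change in the share of endothelial cells and a change of modification within them cannot be told apart in such tissue.

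Several sites beside annotated starts had HpaII ratios well above those of the rest of the gene. RefSeq promoters on GRCm38.p6, the assembly of mm10, covered 6 of the 10 genes (Flt1, Kdr, Flt4, Tek, Tie1 and, with 3 starts, Egfl7). Of the CCGG motifs in all promoters of that table, 35.58% were listed in all 4 samples. None of the 6 motifs in the Flt1 promoter and none of the 5 in the Flt4 promoter was listed. The 4 promoters below are shown because each holds a listed site within the printed bases, which run from 250 bases before the start to 30 bases into the transcript, 5′ to 3′ on the strand of the gene. Capitals mark the listed CCGG sites and everything else is in lower case.
Kdr (chr5:75978426-75978705, minus strand): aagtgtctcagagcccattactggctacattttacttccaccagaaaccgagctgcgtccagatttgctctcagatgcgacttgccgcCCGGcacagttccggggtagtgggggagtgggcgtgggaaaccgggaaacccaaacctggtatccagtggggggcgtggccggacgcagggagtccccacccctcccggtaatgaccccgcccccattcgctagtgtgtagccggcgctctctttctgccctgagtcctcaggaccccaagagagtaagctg
Tie1 (chr4:118489820-118490099, minus strand): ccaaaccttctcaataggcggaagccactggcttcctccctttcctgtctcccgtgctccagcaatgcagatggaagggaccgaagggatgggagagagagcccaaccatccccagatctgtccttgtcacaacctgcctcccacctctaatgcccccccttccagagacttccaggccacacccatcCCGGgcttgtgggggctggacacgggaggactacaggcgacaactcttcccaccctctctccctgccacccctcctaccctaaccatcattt
Tek (chr4:94739039-94739318, plus strand): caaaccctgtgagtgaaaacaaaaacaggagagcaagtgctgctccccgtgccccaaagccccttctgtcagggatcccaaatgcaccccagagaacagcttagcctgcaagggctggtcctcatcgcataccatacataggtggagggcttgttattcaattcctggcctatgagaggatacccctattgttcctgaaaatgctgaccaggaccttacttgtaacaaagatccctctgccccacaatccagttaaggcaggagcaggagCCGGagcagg
Egfl7 (chr2:26583615-26583894, plus strand): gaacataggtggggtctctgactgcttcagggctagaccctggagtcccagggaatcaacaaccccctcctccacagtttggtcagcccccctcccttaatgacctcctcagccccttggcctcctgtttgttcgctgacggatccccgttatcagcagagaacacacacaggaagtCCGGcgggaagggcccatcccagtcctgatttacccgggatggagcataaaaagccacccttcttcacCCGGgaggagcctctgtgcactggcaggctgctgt

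The listed Kdr site lay 162 bases before the start, at position 75978614 of chromosome 5. Its HpaII signal was 140.6 and 104.7 in the wild-type pair, then 135.0 and 125.1 in the Neil3-null pair, against an MspI signal of 10.6, 10.6, 13.8 and 12.3 in the same order. HpaII was thus 1324%, 992%, 979% and 1018% of MspI, so all 4 samples read this site far above the mean of the gene. The Kdr promoter holds 6 CCGG motifs, of which 1 was listed, and it alone of the 8 promoters holds CCGGAA, searched on both strands as CCGGAA or TTCCGG, letters that include the GGAA core bound by ETS factors. That motif overlaps CCGG and is found in 15.08% of all 31396 promoters of the table, so its presence is only a description. CCGG itself is found in 53.48% of them.

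The listed Tek site, 20 bases past the start at position 94739309 of chromosome 4, had HpaII at 864%, 813%, 638% and 622% of MspI in the same order of samples. Both wild-type values were above both Neil3-null values there. The listed Tie1 site, 62 bases before the start at 118489908 of chromosome 4, had 588%, 573%, 406% and 784%, with an MspI signal between 6.64 and 10.2. The Egfl7 promoter shown is that of its second start, with listed sites 73 and 5 bases before it. The first of these had HpaII at 299%, 294%, 405% and 474% of MspI and the other had 383%, 302%, 735% and 309%. At the site 73 bases before the start, both Neil3-null samples were higher than both wild-type samples, the reverse of the Tek site. How many of all sites separate the genotypes in this way is not given here. Neither order was tested. The last start of Egfl7 has a CpG-rich promoter (31 CpG against a median of 7 over all promoters). It holds 1 CCGG motif, 34 bases past the start and just beyond the printed length, where HpaII was 2104%, 1378%, 1283% and 1509% of MspI. MspI was low at most of these sites, and a small denominator makes a large ratio; its part in these values was not tested.

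Within 1 kb of the start, Kdr had 4 sites with a summed HpaII of 483% and 515% of MspI in the wild-type pair, then 478% and 460.1% in the Neil3-null pair. Its other 35 sites came to 133%, 127%, 131% and 130.2%. Tie1 had 2 such sites at 323%, 397%, 313% and 457%, against 103%, 85.7%, 106% and 99.7% over the other 27. Tek had 4 at 236%, 225%, 184% and 231%, against 80.8%, 78.1%, 91.9% and 83.1% over the other 37. In these 3 receptors the start was higher than the rest of the gene in every sample. Flt1 differed less, with 4 sites at 165%, 213%, 180.3% and 148% against 122% to 127% elsewhere, and Egfl7, whose 3 starts have 12 sites within 1 kb, had 169% to 181% against 124% to 163%. Flt4 had no listed site within 1 kb of its start; the nearest was 1576 bases away.

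For Pecam1, Cdh5, Vwf and Nos3 the reference tables gave no start, and the gene end with more CCGG sites was used in its place. Within 1 kb of that end, Pecam1 had 3 sites at 274.5%, 312%, 276.5% and 239%, above its other 58 sites at 135% to 150.3%. Cdh5 had 2 sites at 287%, 185%, 204.5% and 222%. Nos3 had 5 sites at 104%, 81.0%, 108% and 89.5%, which was below its other 24 sites at 135% to 141% in all 4 samples. Vwf had 2 sites at 384%, 68.5%, 113% and 102%, the widest spread of these 4 windows.

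**Figure D1:**
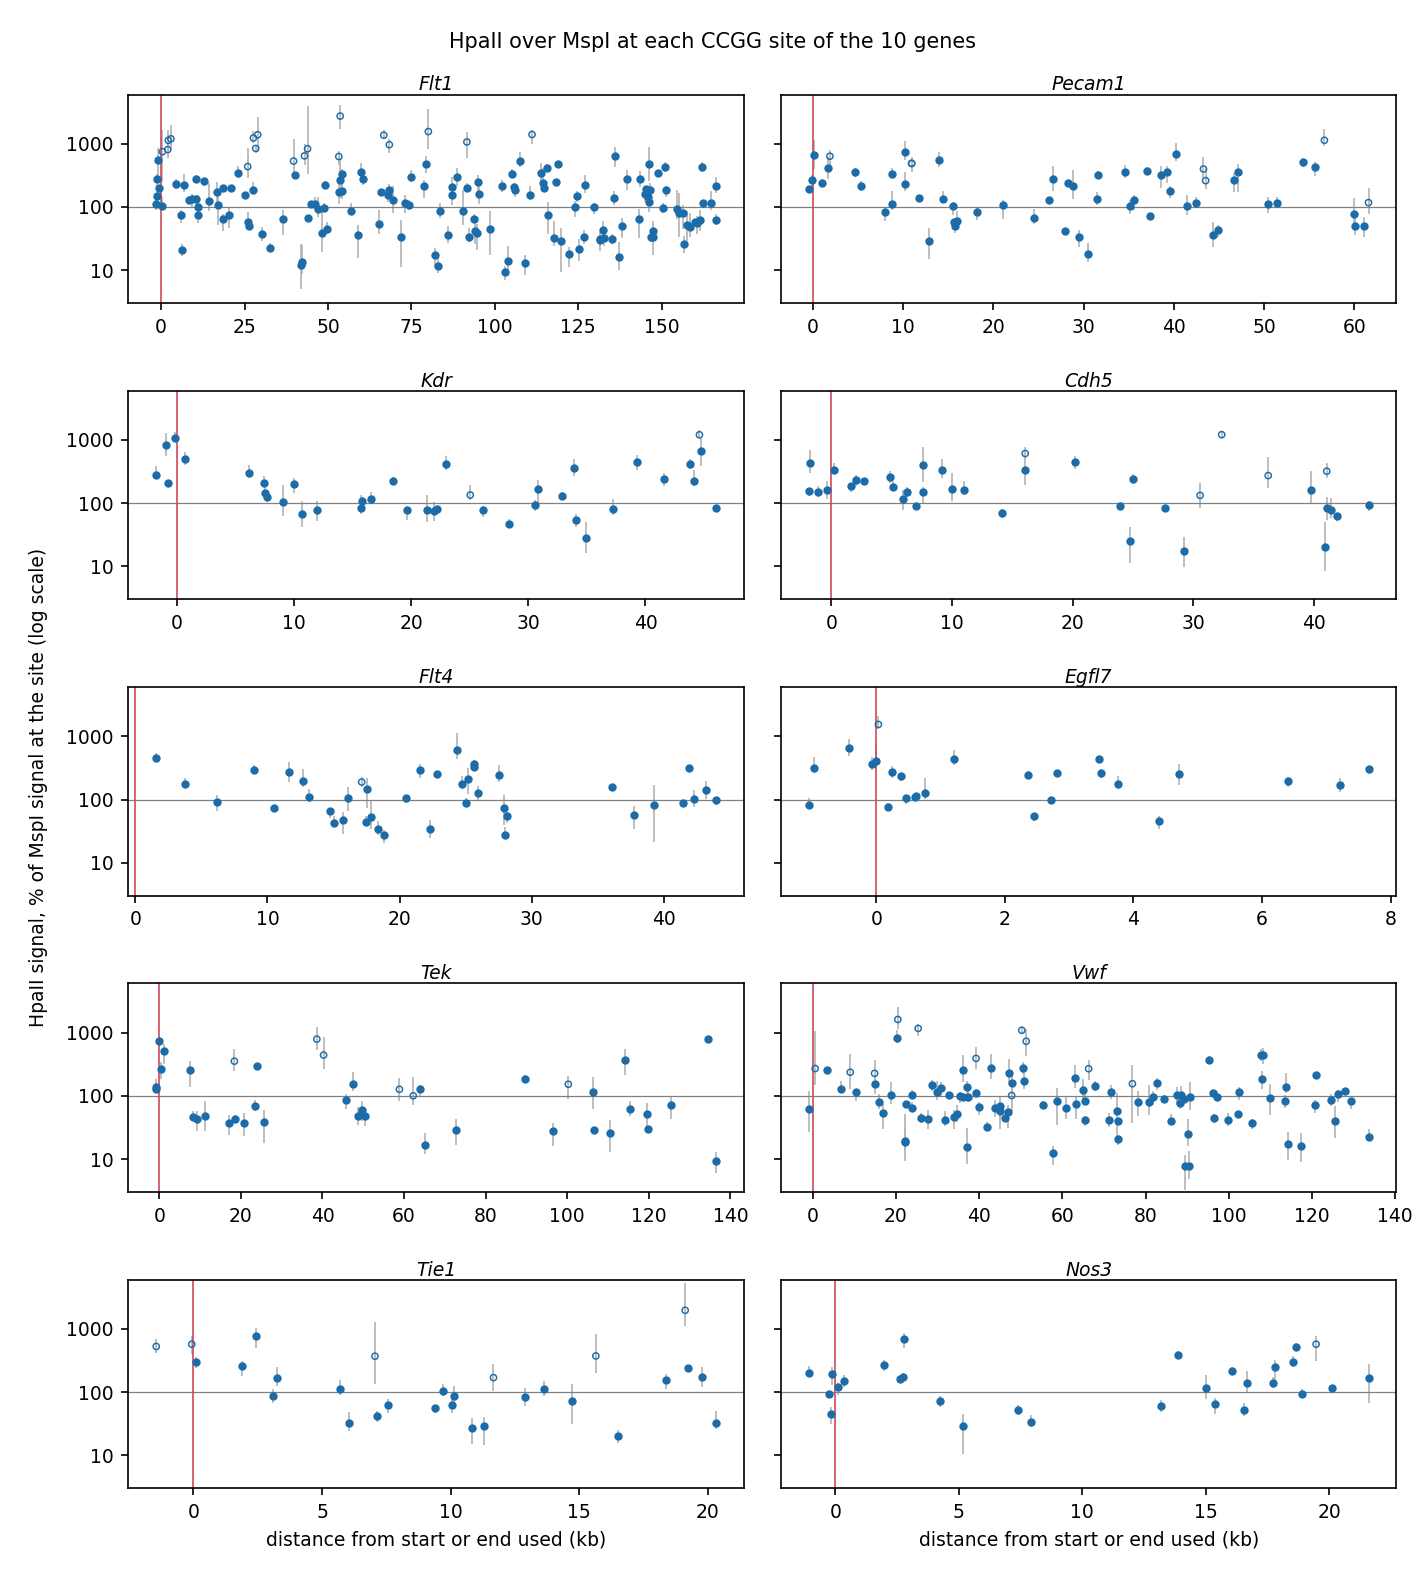
HpaII signal as a percent of MspI signal (log scale) at each of the 570 CCGG sites against the distance in kb from the nearest annotated start, or from the gene end with more sites for Pecam1, Cdh5, Vwf and Nos3 (red line). Points are geometric means of the 4 samples, grey bars run from the lowest to the highest sample, and open points have a mean MspI signal under 10; in Kdr, Tek and Tie1 the sites near the line stand above most others, and open points, where MspI is low, reach the highest ratios of all, up to 5347% in a single sample.

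Among the VEGF receptors, Flt1 (VEGFR-1, which also acts as a decoy that binds VEGF away from Kdr) spans position 147561604 to 147726438 of chromosome 5 and had 161 sites. Its HpaII signal was 128.1% and 124.9% of MspI in the wild-type pair, then 124.8% and 124.7% in the Neil3-null pair. The 4 values lay close together, with wild-type non-infarcted highest. C+mC was 104.1%, 102.8%, 100.5% and 101.1% of MspI in the same order. Kdr (VEGFR-2, the main signalling receptor for VEGF in blood vessels), on chromosome 5 from 75932827 to 75979072 with 39 sites, had HpaII at 153.9%, 151.2%, 152.0% and 151.6% of MspI. For C+mC, Kdr had 100.6%, 102.9%, 101.0% and 100.2%. In summed signal, Flt1 and Kdr were the steadiest of the 10 genes, with a standard deviation over the 4 samples of 1.66 and 1.20 points in the HpaII ratio. By the median of site ratios, Flt1 had 153.1%, 129.3%, 127.0% and 140.9% and Kdr 140.9%, 145.9%, 140.3% and 151.0%. Vwf, at 95.5%, 88.0%, 95.6% and 90.8%, varied less than either by that measure. Flt4 (VEGFR-3, the receptor for VEGF-C on lymphatic endothelium), on chromosome 11 from 49609679 to 49652739 with 41 sites, had HpaII at 122.8%, 126.6%, 122.3% and 130.2%. Both infarcted samples were above both non-infarcted ones, by 3.88 points in wild-type and 7.90 in Neil3-null tissue. By the median of site ratios in place of summed signal, both differences turned, to -21.9 and -15.9 points. Its C+mC ratio was 130.5%, 117.8%, 115.2% and 120.5%, with the set-apart wild-type non-infarcted library highest.

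Tek (TIE2, the receptor for angiopoietins), on chromosome 4 from 94739086 to 94874976 with 41 sites, had HpaII at 97.2% and 92.7% of MspI in the wild-type pair, then 102.8% and 98.0% in the Neil3-null pair. Infarcted tissue was lower by nearly the same amount in both genotypes, with differences of -4.51 points (wild-type) and -4.84 (Neil3-null). The C+mC ratio of Tek in summed signal, 79.3%, 78.8%, 80.7% and 83.2%, was the lowest of the 10 genes in every sample. By the median of site ratios, Tek had 105.1%, 99.75%, 92.3% and 101.1%. By that measure Vwf (104.5%) and Kdr (104.9%) were lower in wild-type non-infarcted tissue. Pecam1 (101.0%) was slightly lower in Neil3-null infarcted tissue. Tie1 (the partner of Tek, for which no high-affinity ligand is established), on chromosome 4 from 118471191 to 118489849 with 29 sites, had HpaII at 110.15%, 94.5%, 113.1% and 110.5%. The wild-type infarcted sample was low and the other 3 lay close together. In C+mC, Tie1 had 121.8%, 99.6%, 101.4% and 112.7%, so here the high wild-type value was non-infarcted and the high Neil3-null value infarcted. In summed signal, Tie1 varied most of the 10 genes in the C+mC ratio, with a standard deviation of 10.4 points over the 4 samples. By the median of site ratios, Tie1 had 141.8%, 119.2%, 110.7% and 117.1%. Flt4 (161.3%, 125.0%, 108.8% and 130.6%), Cdh5 (144.1%, 100.6%, 93.0% and 120.4%) and Nos3 (158.9%, 125.6%, 135.5% and 124.3%) varied more by that measure.

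Of the junction genes, Pecam1 (PECAM-1, an adhesion molecule at endothelial contacts, also found on platelets and leukocytes), on chromosome 11 from 106654213 to 106715281 with 61 sites, had HpaII at 142.8% and 141.3% of MspI in the wild-type pair, then 152.7% and 153.9% in the Neil3-null pair. Both Neil3-null samples were above both wild-type samples, by 9.85 points in non-infarcted and 12.5 in infarcted tissue. By the median of site ratios both differences turned, to -1.68 and -9.38 points. Pecam1 had a C+mC ratio of 97.7%, 86.5%, 89.7% and 89.8%. Cdh5 (VE-cadherin, the adhesive protein of endothelial adherens junctions), on chromosome 8 from 104101613 to 104144504 with 37 sites, had HpaII at 147.2%, 133.9%, 150.2% and 142.5%. Both infarcted samples were below both non-infarcted ones, with differences of -13.3 points in wild-type and -7.63 in Neil3-null tissue. Its C+mC ratio was 104.2%, 94.3%, 92.5% and 97.9%.

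Egfl7 (a secreted protein of the endothelial matrix), on chromosome 2 from 26581083 to 26592682, had 26 sites, of which 4 also lie within the extended span of Agpat2. Its HpaII was 155.3% and 149.2% of MspI in the wild-type pair, then 159.2% and 172.2% in the Neil3-null pair. The infarcted sample was the lower of the pair in wild-type and the higher in Neil3-null tissue. The C+mC ratio was 137.1%, 116.1%, 124.95% and 127.4%, with the set-apart library highest. Vwf (von Willebrand factor, the clotting protein stored in endothelial cells and platelets), on chromosome 6 from 125552948 to 125686679 with 106 sites, had the lowest HpaII ratio of the 10 genes in every sample, at 83.2%, 83.6%, 88.1% and 87.9%. By the median of site ratios in place of summed signal, Tek was lowest in every sample, at 76.9%, 72.2%, 82.9% and 81.7%. Vwf then had 95.5%, 88.0%, 95.6% and 90.8%. In summed signal, infarcted and non-infarcted tissue of Vwf differed by 0.40 points (wild-type) and -0.13 (Neil3-null). Its C+mC ratio was 87.6%, 92.4%, 96.7% and 96.2%, and the wild-type non-infarcted sample was lowest here. Nos3 (endothelial nitric oxide synthase), on chromosome 5 from 24364816 to 24384474, had 29 sites, of which 8 also lie within the extended span of Atg9b. Its HpaII was 131.75%, 121.1%, 132.7% and 127.7%, lower in infarcted tissue of both genotypes, and its C+mC was 139.2%, 131.2%, 131.8% and 132.9%. Without the shared sites, the wild-type infarct difference of Nos3 in HpaII was -4.18 points in place of -10.6.

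**Figure D2:**
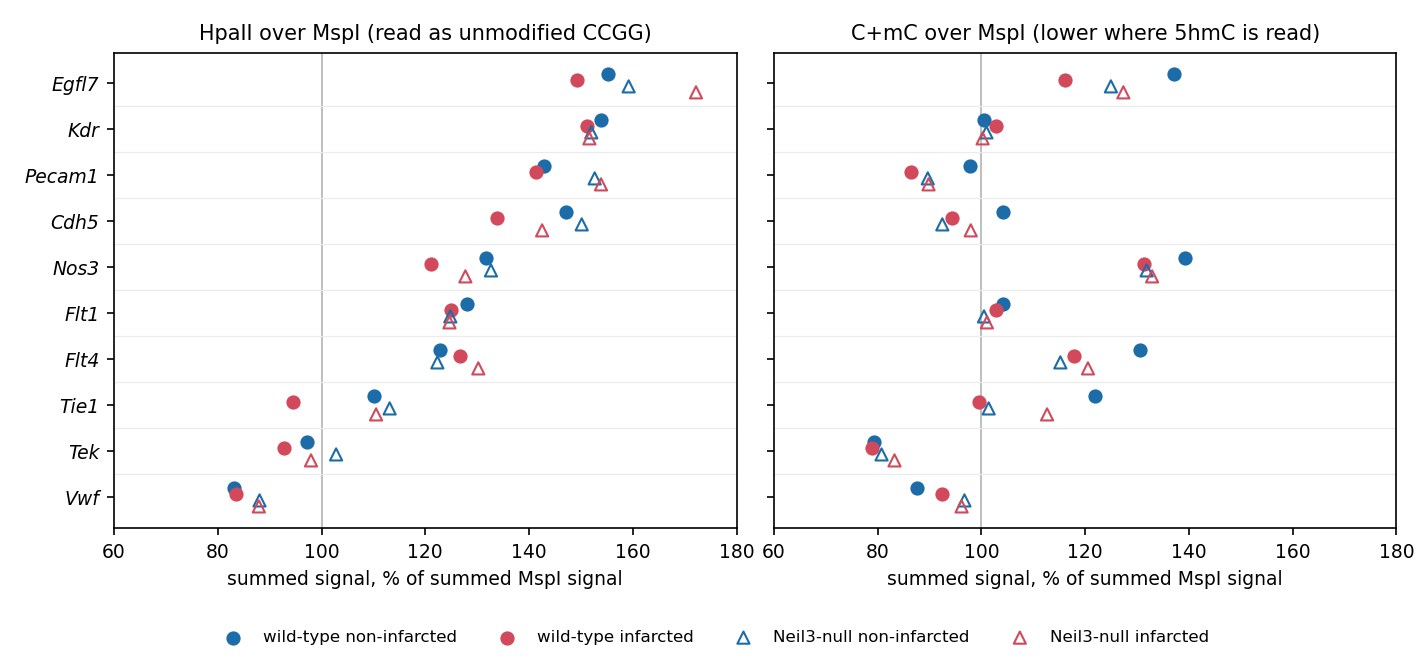
HpaII (left) and C+mC (right) signal of each gene, summed over its sites, as a percent of the summed MspI signal in the 4 samples; circles are wild-type, triangles Neil3-null, blue non-infarcted, red infarcted, with 1 sample per point and no error bar. Egfl7 and Kdr lie highest and Vwf lowest in HpaII, and Nos3 highest and Tek lowest in C+mC by their means over the 4 samples.

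By the mean over the 4 samples, the HpaII ratio ran from Egfl7 (159.0% ± 9.73, SD over the 4 samples) through Kdr (152.2% ± 1.20), Pecam1 (147.7% ± 6.51) and Cdh5 (143.4% ± 7.10) to Nos3 (128.3% ± 5.24), Flt1 (125.6% ± 1.66), Flt4 (125.5% ± 3.70), Tie1 (107.1% ± 8.50), Tek (97.7% ± 4.14) and Vwf (85.7% ± 2.67). The sample ranges of neighbours in this order overlapped except between Cdh5 and Nos3, between Flt4 and Tie1 and between Tek and Vwf. In these terms the genes formed an upper group of 4, a middle group of 3, then Tie1 with Tek, and Vwf. This order and these groups hold for summed signal only. By the median of site ratios, Tek lay below Vwf in every sample. By that measure the ranges of Cdh5 (151.4% to 184.7%) and Nos3 (119.7% to 155.8%) overlapped. So did those of Flt4 (97.3% to 133.2%) and Tie1 (96.7% to 132.6%). The median of all 13926 autosomal protein-coding genes with at least 10 sites was 110.6% to 116.2% by sample. In the C+mC ratio only Tek (80.5% ± 1.99) was separated from its neighbour, Pecam1 (90.9% ± 4.79). The other 9 genes ran without a gap up to Nos3 (133.8% ± 3.66), around gene medians of 100% to 103%. The separation of Tek holds for summed signal only. By the median of site ratios, its range of 92.3% to 105.1% overlapped that of Pecam1, 99.2% to 114.6%.

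The gene whose 8 values (both ratios in the 4 samples) lay nearest to those of each member was found by root mean square difference. It was Plpp3 for Kdr (0.95 points), Sec31b for Vwf (1.56), Vps13d for Tek (1.76), Sema6a for Flt1 (2.28), Ndrg4 for Flt4 (3.52), Tmigd3 for Pecam1 (3.78), Elk3 for Cdh5 (4.29), Zap70 for Nos3 (4.31), Ift52 for Egfl7 (4.36) and Rps23rg1 for Tie1 (5.31). None of these genes is a member of the set, and Tie1 had the least close match.

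The first comparison, infarcted against non-infarcted tissue within a genotype, asks how modification differs in the injured ventricle. In the HpaII ratio of wild-type tissue, 8 of the 10 genes were lower in infarcted tissue, whereas 29.4% of all genes were. Tie1 differed by -15.7 points, Cdh5 by -13.3, Nos3 by -10.6, Egfl7 by -6.13, Tek by -4.51, Flt1 by -3.20, Kdr by -2.74 and Pecam1 by -1.48; Vwf (0.40) and Flt4 (3.88) were higher. The median of the 10 was -3.86 points beside 4.77 over all genes, and all 10 lay below that gene median. In Neil3-null tissue 7 of the 10 were lower, against 38.0% of all genes. There the differences ran from -7.63 (Cdh5) to 13.0 (Egfl7), with Nos3 at -4.94, Tek at -4.84, Tie1 at -2.62 and Flt4 at 7.90, and the median was -0.26 points beside 2.05 over all genes. Flt1, Kdr, Tek, Tie1, Cdh5 and Nos3 were lower in infarcted tissue of both genotypes, 6 of 10 genes, while 14.6% of all genes were lower in both. With the libraries rescaled to equal totals this held for 8 of the 10, Vwf and Pecam1 added, but also for 27.7% of all genes, and Flt4 turned to -1.11 points in wild-type tissue. Tek, Tie1 and Cdh5 were lower in both genotypes under all 7 other ways of forming the ratio that were tried. Flt1, Kdr and Nos3 were not: without the 2 kb flanks Kdr (0.78) and Nos3 (0.48) were higher in infarcted Neil3-null tissue. By the median of site ratios Kdr was higher in both genotypes (5.08 and 10.6) and Flt1 in Neil3-null tissue (13.9). Without the site of the largest MspI signal, Flt1 (0.012) and Kdr (0.79) were higher in Neil3-null tissue. No gene of the set reached a difference of 20 percentage points in either genotype, a size that 11% of all genes reached in wild-type and 5.82% in Neil3-null tissue.

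In the C+mC ratio, infarcted wild-type tissue was lower in 8 of the 10 genes and in 60.5% of all genes, with a median of -8.93 points beside -2.89 over all genes. Tie1 (-22.3 points) and Egfl7 (-20.9) passed 20 points, 2 of 10 genes, beside 14.9% of all genes. These differences use the set-apart wild-type non-infarcted library. In Neil3-null tissue, which does not use it, 8 of the 10 genes and 52% of all genes were higher, the 10 running from -0.74 (Kdr) to 11.3 (Tie1) points, the median was 1.73 beside 0.33, and none of the 10 reached 20 points, against 2.51% of all genes. As deposited, the C+mC difference had opposite signs in the 2 genotypes for all 10 genes, and for 46.8% of all genes. For Flt4, Tie1, Cdh5 and Egfl7 the signs were opposite under all 7 alternatives too, whereas Flt1, Kdr, Tek, Pecam1, Vwf and Nos3 each had the same sign in both genotypes under at least 1 of them. Whether that library accounts for this was not tested.

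**Figure D3:**
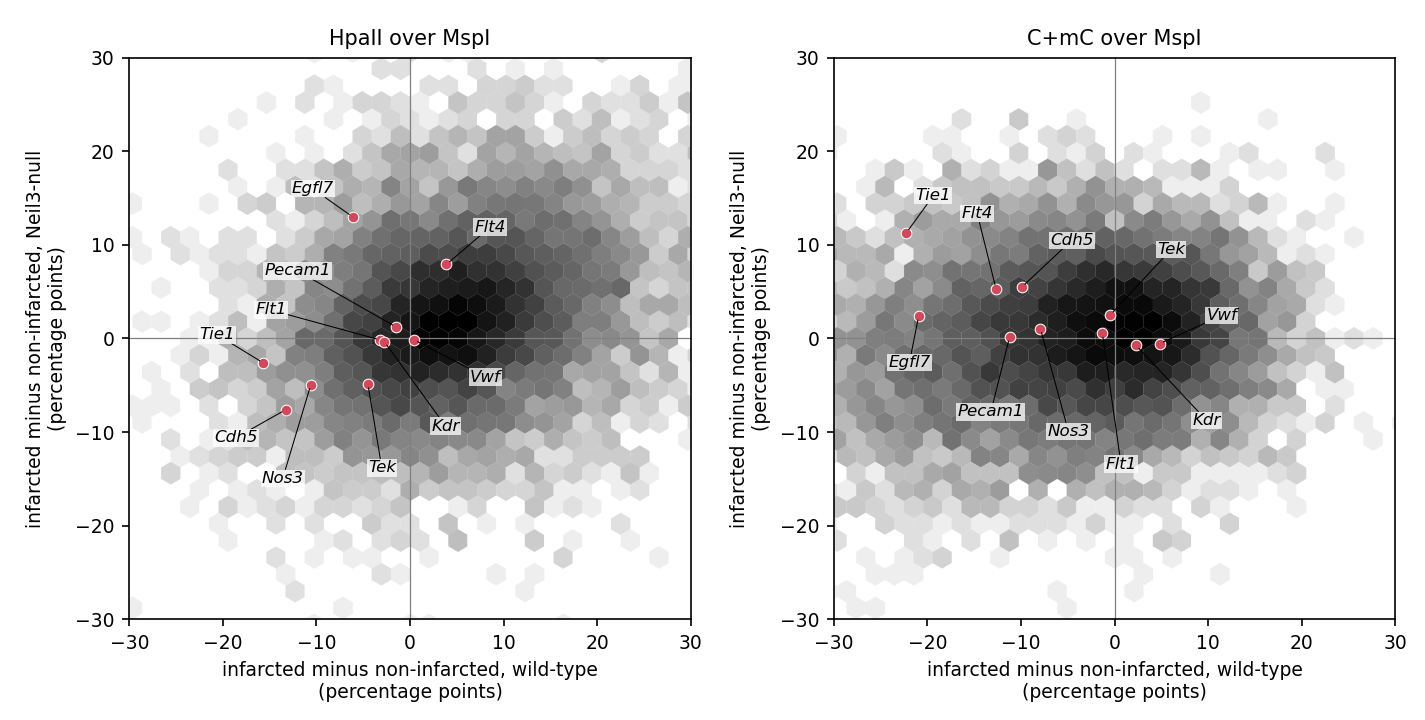
Difference between infarcted and non-infarcted tissue in percentage points, in wild-type (horizontal) against Neil3-null (vertical), for HpaII over MspI (left) and C+mC over MspI (right). Grey cells show the density of all 13926 genes (log scale of gene number), red points the 10 genes; axes are limited to 30 points either way, which cuts off some grey genes but none of the 10.

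Over all 4 samples, limma was used to fit the main effects of infarct and of genotype to the log2 ratio of every gene, with 1 residual degree of freedom. No gene passed an adjusted p of 0.05 in any of the 4 fits (0% of 13926), although 1981 genes for the infarct effect and 987 for the genotype effect on HpaII, and 947 and 546 on C+mC, had an unadjusted p under 0.05. None of the 10 genes was among these. The smallest adjusted p of the set was 0.433, for Tie1 and the infarct effect on HpaII (limma log2 difference -0.13 ± 0.068, standard error). Cdh5 followed with -0.11 ± 0.062 and an adjusted p of 0.472 in the same limma fit. With no replicates, the residual of this fit holds the difference between the genotypes in their infarct differences. It is not a spread of replicates. The infarct differences of the 10 genes were not separable from that residual.

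The second comparison, Neil3-null against wild-type tissue, asks what differs without the glycosylase. In non-infarcted tissue the HpaII ratio of the 10 genes differed by -3.29 (Flt1) to 9.85 (Pecam1) points, with 7 of 10 higher in Neil3-null, against 68.4% of all genes, and a median of 2.97 beside 3.14 over all genes. That median turned to -1.45 with the libraries rescaled to equal totals. None reached 20 points, against 4.8% of all genes. In infarcted tissue 9 of 10 were higher in Neil3-null, against 53% of all genes, with Egfl7 at 23.0 points, Tie1 at 16.0, Pecam1 at 12.5, Cdh5 at 8.62 and Flt1 alone lower, at -0.26. The median was 5.93 points beside 0.57 over all genes. Egfl7 alone passed 20 points, beside 6.67% of all genes; by the median of its site ratios in place of summed signal its difference was 11.9. The genes higher in Neil3-null in both tissues were Tek, Tie1, Pecam1, Cdh5, Egfl7, Vwf and Nos3, 7 of 10 beside 37.5% of all genes. Rescaled to equal totals, Tie1, Cdh5, Egfl7 and Nos3 were lower in non-infarcted Neil3-null tissue, at -0.58 to -3.23 points, and 3 of the 10 genes (Tek, Pecam1 and Vwf) were higher in both tissues, beside 24% of all genes. Tek and Vwf, though not Pecam1, were higher in both tissues under all 7 alternatives. The infarct and the genotype differences share samples, so a low wild-type infarcted value, as for Tie1, enters both.

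In the C+mC ratio of non-infarcted tissue, 7 of the 10 genes and 57% of all genes were lower in Neil3-null, with a median of -7.71 points beside -1.68 over all genes. Only Tie1 (-20.4) passed 20 points, beside 10.6% of all genes. This comparison again uses the set-apart library. In infarcted tissue, without it, 8 of 10 and 60.2% of all genes were higher, the 10 running from -2.64 (Kdr) to 13.1 (Tie1) points with a median of 3.49 beside 1.71, and none reached 20 points, against 3.17% of all genes. In limma, the smallest adjusted p of the set was 0.766 for genotype on HpaII (Tie1, log2 difference 0.13 ± 0.068, standard error) and 0.872 for infarct on C+mC (Egfl7, -0.11 ± 0.093).

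Single sites were then read. A site counted as different when its ratio differed at least 2-fold in the same direction in both genotypes (for infarct) or both tissues (for genotype), with a mean MspI signal of at least 10, which 512 of the 570 sites had. For infarct on HpaII, 5 sites did so, or 0.977% beside 1.72% of all autosomal sites. In Kdr, a site 9062 bases past the start, at 75969390 of chromosome 5, had HpaII at 63.8% and 191.8% of MspI in the wild-type pair, then 67.4% and 153.6% in the Neil3-null pair. Both infarcted samples were more than 2-fold above both non-infarcted ones, much as the rule that picked the site requires. A Vwf site at 125662931 of chromosome 6 had 49.4%, 148.8%, 62.8% and 151.0% in the same order and likewise was high in both infarcted samples. A Flt1 site at 147622115 of chromosome 5 had 8.05%, 18.7%, 10.2% and 24.5%, a difference within a low range. The 2 sites that were lower in infarcted tissue were in Flt1, at 147684009 (15.1%, 5.01%, 26.02% and 11.1%), and in Vwf, at 125643313 (11.6%, 4.76%, 13.3% and 5.26%). Their HpaII signal in wild-type infarcted tissue was 3.54 and 3.52, near the lowest HpaII value of that library, 3.16.

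For genotype on HpaII there were also 5 sites, 0.977% beside 1.47%. Higher in Neil3-null were a Tie1 site at 118475120 of chromosome 4 (54.8% and 31.7% in wild-type, 134.8% and 118.0% in Neil3-null tissue) and Vwf sites at 125575088 (11.4%, 9.35%, 52.1% and 24.9%) and 125643526 (59.7%, 64.0%, 165.0% and 131.8%) of chromosome 6. Lower were a Flt1 site at 147568494 of chromosome 5 (85.9%, 70.3%, 42.5% and 28.7%) and a Pecam1 site at 106715132 of chromosome 11, 146 bases inside one end of the gene (950%, 1141%, 443% and 397%). The genotypes did not overlap at these 5 sites, which follows largely from the rule that picked them and adds nothing to it. In wild-type infarcted tissue, the Tie1 site and the first of the Vwf sites had HpaII signals of 3.57 and 3.62, again near the low end of that library. At the Pecam1 site the HpaII signal was 70.8, 72.2, 53.0 and 60.1, while MspI was 7.46, 6.33, 12.0 and 15.1. On C+mC, 3 sites differed with infarct, 0.586% beside 0.529%. C+mC was higher in infarcted tissue at Flt1 sites 147564653 (60.1%, 135.3%, 51.6% and 121.4%) and 147665640 (45.4%, 106.1%, 42.5% and 125.2%) and lower at a Cdh5 site at 104121840 of chromosome 8 (477%, 165%, 266.5% and 124%). No site of the 10 genes differed with genotype on C+mC, against 0.628% of all sites. The shares of different sites in the set were close to or below those of the genome, so they give no result about these genes as a set.

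Sites at the ends of the scale in every sample were then counted. The 4 limits used for this were chosen after the data had been seen, and the counts are among the 512 sites with a mean MspI signal of at least 10. HpaII was at most 25% of MspI in all 4 samples at 13 sites (2.54%, beside 4.17% of all sites): 7 of 143 in Flt1, 4 of 95 in Vwf, 1 of 35 in Tek and 1 of 23 in Tie1. None lay within 1 kb of an annotated start or, for Vwf, of the gene end used in its place. The Tek site lies in the flank that is shared with Eqtn. One of them, in Vwf at 125642359 of chromosome 6, had HpaII at 8.13%, 11.2%, 11.7% and 3.19% of MspI with C+mC at 61.0%, 69.2%, 64.1% and 58.5%. Another, in Flt1 at 147644080 of chromosome 5, had HpaII at 14.8%, 11.75%, 22.4% and 22.1% and C+mC at 18.0%, 24.3%, 23.4% and 36.4%. Both were picked after their values were seen. C+mC was at most 50% of MspI in all 4 samples at 21 sites (4.1%, beside 4.64%): 8 of 143 in Flt1, 4 of 35 in Tek, 3 of 54 in Pecam1, 3 of 32 in Cdh5, 2 of 95 in Vwf and 1 of 23 in Tie1. The lowest was in Flt1, 30100 bases past the start at 147695908, with C+mC at 9.08%, 10.7%, 12.0% and 14.2%. Kdr, Flt4, Egfl7 and Nos3 had no such site among 37, 40, 25 and 28. The shares at this end were below those of all sites and give no result about these genes as a set.

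At the other end, HpaII was at least 300% of MspI in all 4 samples at 41 of the 512 sites (8.01%, beside 6.67% of all sites). There were 8 of 143 in Flt1, 7 of 37 in Kdr, 7 of 54 in Pecam1, 4 of 25 in Egfl7 and 4 of 95 in Vwf. Flt4 had 3 of 40, Tek 3 of 35, Nos3 3 of 28, Tie1 1 of 23 and Cdh5 1 of 32. C+mC was at least 200% of MspI at 22 (4.3%, beside 3.39%). With no minimum MspI signal, over all 570 sites, these counts were 73 and 35, while those at the low end stayed at 13 and 21. The shares at the high end were near those of all sites and give no result about these genes as a set. The MspI signal moved with these classes. Its median was 82.4 at the 13 low HpaII sites and 15.3 at the 41 high ones, beside 36.2 over the 512 sites, and 86.3 at the low and 15.1 at the high C+mC sites. MspI is the denominator of both ratios, and its part in these classes was not tested. Sites with 3 to 5 others within 500 bases (41 sites in 7 genes) had summed HpaII ratios of 131.1%, 118.5%, 130.6% and 126.4%, and isolated sites (259 sites in all 10 genes) 114.3%, 109.4%, 114.3% and 117.1%, while the 270 sites with 1 to 2 others (all 10 genes) had 128.0%, 127.4%, 131.9% and 131.1%. Isolated sites were thus lowest in each sample, with no further order between the other 2 classes. In C+mC the classes had 94.0% to 97.8% (isolated), 104.0% to 109.2% (1 to 2) and 111.1% to 123% (3 to 5).

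The wider pathway was read from lists of related genes, by the infarct difference in the HpaII ratio. Where a list is said to run from one gene to another, the genes are ordered by the mean of their differences in both genotypes. Of the VEGF and angiopoietin ligands and co-receptors, 10 of 12 listed names were measured, with medians of 4.99 points in wild-type and 0.53 in Neil3-null tissue. Within that list 1 gene of 10 was lower and 4 were higher in infarcted tissue of both genotypes. Of all 13926 genes, 2034 were lower and 6573 higher in both, so the shares in the list lay near those of all genes. Angpt1, the activating ligand of Tek, had HpaII at 88.5%, 106.6%, 98.0% and 104.0%, a difference of 18.2 points (wild-type) and 6.02 (Neil3-null). Nrp1, the co-receptor of Kdr, had 172.9%, 159.0%, 171.5% and 167.4%, a difference of -13.9 and -4.18 points. Angpt1 and Nrp1 are named as the most positive and most negative genes of the list, so their directions follow from that choice. Of 12 other junction genes 11 were measured, with medians of 4.64 and -0.88 points, from Ocln (occludin of tight junctions, -27.8 and -8.74) to Esam (an endothelial adhesion molecule, 44.25 and -3.15). Of 21 other endothelial surface genes 15 were measured, with medians of 3.53 and -0.87 points, from S1pr1 (a receptor for sphingosine 1-phosphate, -33.3 and -9.28) to Calcrl (part of the adrenomedullin receptor, 37.9 and 10.9). No gene of any list passed the limma test in any of the 4 fits. The wild-type medians of these 3 lists lay near that of all genes, 4.77 points, and the Neil3-null medians below 2.05.

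Marker genes of the other cells of the ventricle were read in the same way. Cardiomyocyte markers (9 of 15 measured) were lower in infarcted tissue in 9 of 9 genes in wild-type and 8 of 9 in Neil3-null. Of all genes, 29.4% and 38% were lower. The medians of these markers were -11.5 and -5.42 points. Their summed HpaII ratio was 94.8% and 84.3% in the wild-type pair, then 99.0% and 92.85% in the Neil3-null pair. By the mean of both genotypes, these genes ran from Tnnt2, cardiac troponin T (-30.4 and -7.16 points), to Myoz2, a sarcomere protein (-1.35 and -3.43). Leukocyte markers (12 of 18) were higher in 9 of 12 genes in wild-type and 11 of 12 in Neil3-null tissue. Of all genes, 70.6% and 62% were higher, so the wild-type share lay near that of all genes. The leukocyte medians were 10.1 and 6.94 points, with summed ratios of 104.6%, 116.3%, 106.0% and 115.7%. These genes ran from Adgre1, which encodes the macrophage marker F4/80 (-8.31 and -3.54), to Mpo, myeloperoxidase (37.6 and 22.5). Fibroblast markers (10 of 12) had medians of 4.67 and 6.58 points and summed ratios of 108.6%, 120.0%, 112.2% and 118.0%, from Dpt (-1.39 and 3.77) to Pdgfra (28.5 and 13.4). Smooth muscle and pericyte markers (11 of 12) had medians of 1.11 and 3.17 points and summed ratios of 109.7%, 113.6%, 113.1% and 113.5%, from Notch3 (-10.5 and -9.23) to Acta2 (31.6 and -4.45). Over all genes the medians were 4.77 points in wild-type and 2.05 in Neil3-null tissue. The wild-type median of the fibroblast markers thus lay near that of all genes. The part of cell composition in the differences of these marker lists was not tested.

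**Figure D4:**
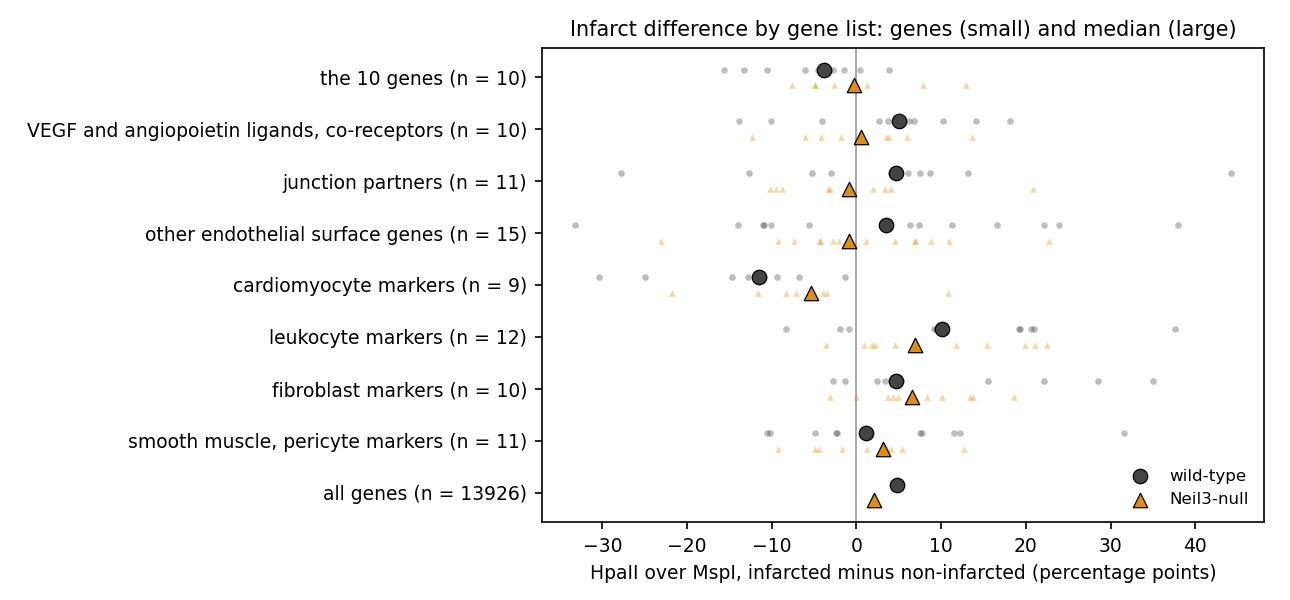
Infarcted minus non-infarcted HpaII over MspI in percentage points for the genes of each list (small symbols) and their median (large symbols), in wild-type (grey circles) and Neil3-null (orange triangles); n is the number of measured genes. The 10 endothelial genes have medians of -3.86 and -0.26 points, between the cardiomyocyte markers (-11.5 and -5.42) and all genes (4.77 and 2.05, single genes not drawn).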

How the data were processed

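Genomic DNA of 4 left ventricle samples was profiled by HMST-seq with 3 libraries each, per the labels' protocols. For each CCGG site the authors deposited 1 signal value per library, which they had normalized. The sources used here do not give the aligner, the filters or the method of normalization. The submitters' processing notes name mm10 as the build; a listed position counts from 0, and 1 was added, as a match to the RefSeq promoters showed. Exons and untranslated regions were not used here. Tag numbers could not be recovered from the signal, so depth is unknown and counting intervals are left out.

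Sites listed in all 4 files were summed over the RefSeq span (GRCm38.p6) of each autosomal protein-coding gene plus 2 kb either side, and the HpaII and C+mC sums were divided by the MspI sum. Genes needed at least 10 sites, which left 13926. A difference counted from 20 percentage points, without a p-value, since each group has 1 sample. With limma 3.58.1 in R 4.3.3, infarct plus genotype was fitted over 4 samples on log2 ratios, with Benjamini-Hochberg adjustment over all genes at 0.05; the script was tested on simulated data. A site counted at a log2 difference of 1 in the same direction, with a mean MspI signal of at least 10. The rest was done in Python 3.11.15, numpy 2.4.6, pandas 2.3.3 and matplotlib 3.10.9.

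The members and the gene lists were chosen with earlier results of these data known. Of 112 listed genes, 88 were measured; the other names had fewer than 10 sites, lie on no autosome or matched no gene of the table. Named from each list were the genes with the most positive and most negative mean infarct difference in HpaII, from the 10 members all, per gene up to 3 differing sites, and the nearest gene by 8 ratios. Sites at the ends of the scale were added after the data had been seen.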

Additional observations from a re-analysis of the deposited data

Results flagged for a closer look

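The C+mC ratio of Tie1 differed with infarct in opposite directions in the 2 genotypes, by -22.3 points in wild-type and 11.3 in Neil3-null tissue, 33.5 points apart. Egfl7 did so too, by -20.9 and 2.41 points, 23.3 apart. By the median of site ratios, Egfl7 was 16.0 points apart, under 20, and Tie1 29.0. With 1 sample per group the difference between genotypes was not tested. Of all 13926 genes, 1650 (11.8%) had opposite signs at least 20 points apart in this ratio, and every such wild-type difference uses the C+mC library that stood apart. In the HpaII ratio, where 1223 genes (8.78%) did so, none of the 10 was 20 points apart; Egfl7 came nearest, at 19.1. It was over 20 points apart without the 2 kb flanks (23.3), with libraries rescaled to equal totals (21.6), relative to the median gene (21.8) and without the site of the largest MspI signal (21.6). Egfl7 stayed under 20 with sites of a mean signal of at least 10 (19.1), without sites shared with another gene (19.0) and by the median of site ratios (17.0).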

How the results depend on the processing

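No paired analysis was possible because the labels give no replicate numbers and do not say which tissues share a heart; limma kept genotype as a term. Leaving out a sample was not run, since each group has 1 and limma over 4 samples has 1 residual degree of freedom. Over 7 ways of forming the ratios, 54 of 56 medians of the 10 genes moved by less than their SD over the 10 genes. The exceptions were -10.7 points for the wild-type infarct difference in HpaII by the median of site ratios and -1.45 for the genotype difference in non-infarcted tissue with libraries rescaled to equal totals. The latter median (2.97) also turned sign relative to the median gene (-0.17) and by the median of site ratios (-0.22), and the Neil3-null infarct median in HpaII (-0.26) turned to 0.20 without the 2 kb flanks. Of 88 counts, 59 stayed within 1.5 times.

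Counts of the 10 genes past the limit moved as follows. The share of all genes past the limit is not given here for these settings. The counts are therefore no result about the set. Relative to the median gene, 1 gene passed for the wild-type infarct difference in HpaII (Tie1, -20.4 points) and 0 for C+mC in the wild-type infarct and non-infarcted genotype differences. By the median of site ratios, 4 passed for wild-type infarct in HpaII and 4 in C+mC, 2 for each of the genotype differences in HpaII, 2 for Neil3-null infarct in C+mC and 4 for the non-infarcted genotype difference in C+mC. Without flanks, 2 passed for the infarcted genotype difference in HpaII (Egfl7, Tie1 at 20.1), 1 for wild-type infarct in C+mC and 0 for the non-infarcted genotype difference in C+mC. The last was also 0 with sites of a mean signal of at least 10, where Tie1 stood at -20.0. At 10 points, 3 passed for wild-type infarct, 1 for Neil3-null infarct and 3 for the infarcted genotype difference in HpaII; in C+mC these were 4, 1 and 2, with 4 for the non-infarcted genotype difference. At a relative rise of 25% or its reverse, 0 passed in each comparison, Egfl7 included.

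With no minimum MspI signal, 8 sites differed with infarct in HpaII (1.4%, beside 2.07% of all sites). With genotype, 8 did in HpaII (1.4%, beside 1.79%) and 5 in C+mC (0.877%, beside 0.92%). At a minimum of 20, 3 sites differed with infarct (0.732%, beside 1.4%) and 1 with genotype (0.244%, beside 1.15%) in HpaII. In C+mC, 1 did with infarct (0.244%, beside 0.329%) and 0 with genotype (beside 0.46%). These shares were all below those of all sites. Limma on sites with a mean signal of at least 10 called 43 genes for infarct and 3 for genotype in HpaII, in place of 0 and 0, none of them in the set. Depth is unknown, and low MspI or HpaII signal limits single sites most. The cause of these moves was not tested.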
